A study of Mus musculus with 7 samples.

Results

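The genes described here are 9 liver enzymes that break down tyrosine (Tat, Hpd, Hgd, Fah), tryptophan (Tdo2), histidine (Hal) and serine and glycine (Sds, Sdsl, Gldc). They were taken as a list of genes, and their accessible chromatin was taken as every counted region that overlapped a gene body or the 10000 bp on either side of it. This gave 61 regions of the 55680 counted in all. Of these, 4 regions lie at both Sds and Sdsl, which are neighbours on chromosome 5. Accessibility was measured by ATAC-seq, in which a transposase inserts sequencing adapters into open DNA, so that reads pile up where chromatin is accessible. Liver tissue of C57BL/6N mice was compared between 3 young libraries, from mice of 3 months, and 4 aged libraries, from mice of 18 months. The animals were male by the study's methods, and neither age carried a genetic change or a treatment in the labels. By the design text deposited with the series, the 4 aged libraries came from 3 animals, because 2 lobules of 1 liver gave a library each. The study's methods count every aged library as a biological replicate, and no label says which libraries share an animal. P-values therefore measure the spread between these libraries, which may be technical.

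These pathways are among the most liver-restricted of amino acid metabolism. Tat transfers the amino group of tyrosine, Hpd and Hgd oxidise the product and open its ring, and Fah makes the last cut to fumarate and acetoacetate. Tdo2 opens the ring of tryptophan and starts the kynurenine pathway. Hal removes ammonia from histidine, Sds removes ammonia from serine to give pyruvate, Sdsl is its relative, and Gldc is the decarboxylase of the glycine cleavage system. Tat, Tdo2 and Sds are textbook genes for induction by glucocorticoids or glucagon in fasting.

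The libraries held between 4474652 and 25461110 counts in regions, with the deepest and a shallow library both in the young group. Values are given as CPM, the counts of a region scaled to the total of its library with edgeR's TMM factors. All 7 hepatocyte marker genes that matched the annotation by symbol, of 8 listed, had an accessible promoter, and their summed level was 663 to 725 CPM in young and 797 to 915 CPM in aged libraries. Kupffer cell markers had 1 accessible promoter of 6, at 2.22 to 2.65 CPM in young and 0.588 to 2.80 CPM in aged libraries, and lymphocyte markers had 0 of 6. Sinusoidal endothelial markers had 4 of 6, at 63.3 to 72.3 CPM and 52.6 to 87.8 CPM. Stellate cell markers had 4 of 6, at 27.8 to 30.9 CPM in young and 17.1 to 25.0 CPM in aged libraries, and cholangiocyte markers had 3 of 6, at 43.8 to 52.0 CPM and 39.4 to 56.9 CPM. The part of cell composition in the results was not tested. In bulk tissue, fewer cells of a type and less accessibility per cell cannot be told apart.

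The bases just upstream of a gene's start show what kind of promoter each enzyme has. Sequences are from the GRCm38.p6 assembly, read on the gene's strand, with starts from RefSeq for Fah, Tat and Hal. For Tdo2 the GENCODE M21 start was used, because the bases before the RefSeq start overlap an annotated untranslated region. The Fah bases lie within the gene as annotated in M21, whose start is farther upstream, at 84606722. They are shown because Fah was the member whose promoter was called and Tat, Tdo2 and Hal carry out early steps of tyrosine, tryptophan and histidine breakdown. Capitals mark CpG dinucleotides, the bases at which DNA can be methylated.
Fah, chr7:84605943-84606092, minus strand: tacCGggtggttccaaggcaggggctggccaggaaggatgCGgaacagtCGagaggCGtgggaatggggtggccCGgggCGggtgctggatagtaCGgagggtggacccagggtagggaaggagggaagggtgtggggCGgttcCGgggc
Tat, chr8:109990286-109990435, plus strand: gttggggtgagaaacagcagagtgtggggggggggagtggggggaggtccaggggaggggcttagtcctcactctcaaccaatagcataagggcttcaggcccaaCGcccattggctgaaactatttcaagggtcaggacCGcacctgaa
Hal, chr10:93488618-93488767, plus strand: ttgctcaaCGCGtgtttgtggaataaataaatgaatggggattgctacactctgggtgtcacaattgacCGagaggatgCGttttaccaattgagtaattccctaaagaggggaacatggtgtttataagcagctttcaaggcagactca
Tdo2, chr3:81976203-81976352, minus strand: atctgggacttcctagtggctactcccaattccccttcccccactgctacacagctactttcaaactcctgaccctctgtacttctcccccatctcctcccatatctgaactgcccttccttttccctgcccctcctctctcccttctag
Over these 150 bases Fah had 9 CpGs and a GC content of 68.7%. Hal had 4 CpGs at 42.7% GC, Tat had 2 at 58.7%, and Tdo2 had 0 at 54%.

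CpG content was low at most of the members' promoters. The observed over expected CpG ratio of the 9 promoter regions ran from 0.153 at Hgd to 0.435 at Fah, against a median of 0.646 over all 15422 promoter regions. A promoter region here is the region overlapping 200 bp on either side of an annotated transcript start, and where a gene has several, the most accessible. For Gldc this is an internal start, and the region at its gene start had a ratio of 0.601. Motif letters were searched on both strands in the RefSeq promoters, from 250 bases before to 50 after the start, which were found for 7 of the 9 members and not matched for Sds and Sdsl. The TATA box letters TATAAA were present at Hgd, Tdo2 and Hal, and in 13.6% of all 32851 promoters of this length. They began 139 bases before the start at Hgd and 229 bases before it at Tdo2, far upstream of where a TATA box lies, and 28 bases before it at Hal, on the minus strand, where they can be read in the line above as the reverse complement. The Tdo2 line above belongs to another start and does not hold them. None of the 7 windows held the letters searched for FOXA (TGTTTAC, 3.65% of all promoters), C/EBP (TTGCGCAA, 0.183%), an HNF1 half-site (GTTAAT, 7.10%) or HNF4 (CAAAGTCCA, 0.475%). The letters TGACGTCA of the cAMP response element, in 1.79% of all promoters, and TGTTCT of a glucocorticoid receptor half-site, in 19.0%, were also not in these windows. A match or its absence describes these letters only.

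Few regions at these genes changed with age past the threshold. With edgeR's quasi-likelihood test over all 55680 regions and an adjusted p under 0.05, 1 of the 61 regions rose in aged liver and 2 fell. Over all regions 2.44% were called more accessible and 3.30% less accessible, so the members' counts were near the background. At an unadjusted p under 0.05, 2 regions were higher and 10 lower, against 11.9% and 12.7% of all regions. All 4 aged libraries were above all 3 young ones in 4 regions, against 10.2% of all regions, and below them in 9 regions, against 11.6%. The median log2 fold change over the 61 regions was -0.02, beside -0.04 over all regions.

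Promoters and the other regions of these genes had medians on different sides of 0. The log2 fold change was above 0 at 8 of the 9 promoter regions, with a median of 0.22, but the median over the promoter regions of all 13018 protein-coding genes with one was 0.13, and 66.7% of those were above 0. The 4 further promoter regions, at other starts of these genes, are not among the 9, and 3 of them were below 0. Of the 48 regions outside the members' promoters, 27 were below 0, with a median of -0.14. Of these, 5 are promoter regions of other genes, and the 43 outside every promoter had a median of -0.14, beside -0.09 over all regions outside promoters. In these libraries the change followed mean accessibility over all regions, from a median of -0.42 in the least accessible decile to 0.28 in the most accessible. Set against the median of their own decile, 4 of the 9 promoter regions were above it and 5 below, and 22 of the 61 regions were above it and 39 below. With offsets fitted on mean abundance, the median of the 9 promoter regions was -0.0077, and without aged 4 it was 0.0244.

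**Figure D1:**
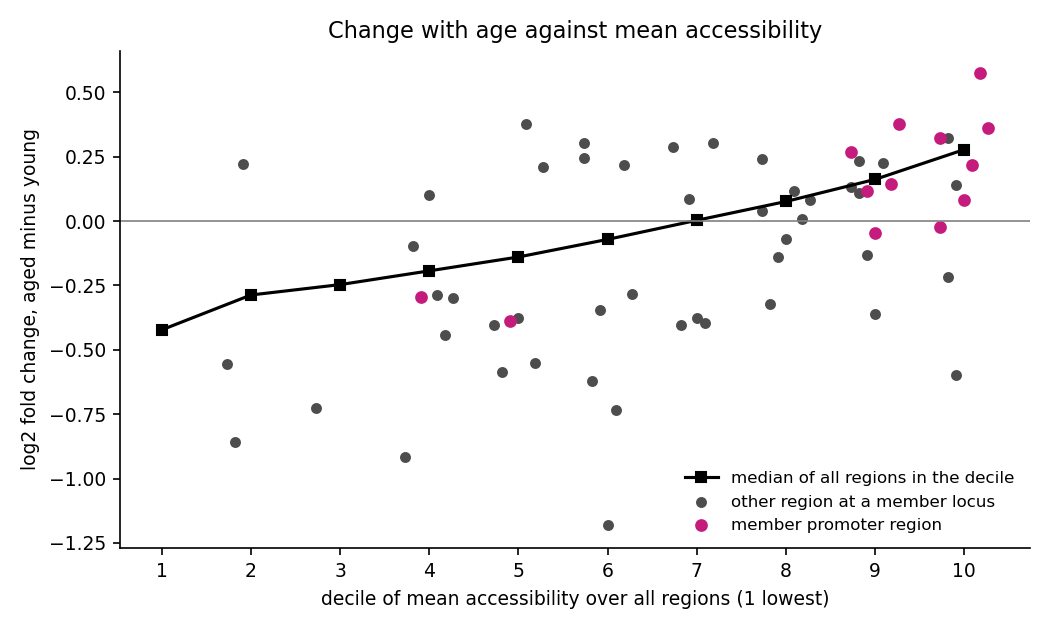
Log2 fold change of aged minus young (vertical axis) of the 61 regions, by decile of mean accessibility over all 55680 regions (horizontal axis, points spread sideways within a decile for legibility). Squares joined by a line are the medians of all regions, which climb from -0.42 to 0.28; most member promoter regions sit in the top 2 deciles, scattered around that line.

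Fah, the last enzyme of tyrosine breakdown, had the 1 region that rose. Its promoter region (chr7:84604315-84606905, covering the start of the gene) was at 128, 130 and 96.4 CPM in the young libraries and at 181, 155, 175 and 194 CPM in the aged ones. The ages did not overlap, and young 3 was the lowest library. The young mean was 118 ± 18.9 CPM (SD, n = 3) and the aged mean 176 ± 16.1 CPM (SD, n = 4). The log2 fold change was 0.57 with an SE of 0.13 and an adjusted p of 0.0248 by edgeR. It was the only one of 9 member promoters called, where 5.02% of the promoter regions of protein-coding genes were called more accessible. The call was lost without young 1, young 2, aged 1 or aged 3, with edgeR adjusted p of 0.0667, 0.0637, 0.0761 and 0.0720. In those fits 0.115%, 0.338%, 0.161% and 0.315% of protein-coding promoter regions were called more accessible, against 5.02% with all libraries. The log2 fold change stayed between 0.46 and 0.65 whichever library was left out. The call was also lost with aged 1 and 3 summed as 1 animal (edgeR adjusted p of 0.0654). It was lost too with regions of at least 10 counts in every library (edgeR adjusted p of 0.0541). With offsets fitted on mean abundance, the log2 fold change was 0.20 and not called (edgeR adjusted p of 0.283). In these fits 0.591%, 1.43% and 0.108% of protein-coding promoter regions were called more accessible.

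Within the body of Fah the direction was the opposite. The other region at this gene, over a coding exon with its midpoint 11.9 kb past the gene start (chr7:84594146-84595453), was at 17.2, 15.9 and 11.2 CPM in young and 8.87, 13.3, 10.97 and 13.2 CPM in aged libraries. The ages overlapped at young 3, and the log2 fold change of -0.37 (SE 0.20) had an edgeR adjusted p of 0.276.

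Hpd, the dioxygenase that follows Tat, had a region that fell. The region at its end (chr5:123168752-123172445) has 639 of its 3694 bp within the gene, over the last exons, and the rest past the gene's end. It was at 116, 134 and 133 CPM in young libraries and at 74.7, 88.8, 88.0 and 85.9 CPM in aged libraries. Every aged library was below every young one, and the means were 128 ± 10.2 CPM (SD, n = 3) and 84.4 ± 6.57 CPM (SD, n = 4). The log2 fold change was -0.60 with an SE of 0.11 and an edgeR adjusted p of 0.0129. This region also overlaps the start of a transcript of Psmd9, a proteasome assembly factor gene that overlaps Hpd, so its reads cannot be assigned to Hpd alone. The call was lost without young 2 (edgeR adjusted p = 0.0633) or aged 1 (edgeR adjusted p = 0.0544). In those fits 0.449% and 0.490% of all regions were called less accessible, against 3.30% with all libraries. Regions in the same decile of mean accessibility as this Hpd region had a median log2 fold change of 0.28.

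The other regions in the body of Hpd were also lowest in aged 1. An intronic region (chr5:123174541-123175066) was at 13.4, 15.8 and 12.7 CPM in young and 8.70, 10.98, 11.2 and 11.96 CPM in aged libraries, with no overlap of the ages and a log2 fold change of -0.40. A region over a coding exon (chr5:123178735-123179656) was at 23.1, 24.6 and 24.3 CPM in young and 11.9, 21.8, 23.1 and 21.4 CPM in aged libraries, and differed mainly in aged 1. Neither passed the edgeR test, with adjusted p of 0.187 and 0.329. The promoter region of Hpd (chr5:123180007-123183043) was level, at 91.7, 94.0 and 90.1 CPM in young and 87.9, 93.0, 99.2 and 109 CPM in aged libraries. Its log2 fold change of 0.08 (SE 0.11) had an edgeR adjusted p of 0.692.

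Tat, the first enzyme of tyrosine breakdown, is covered by broad open regions. Its promoter region (chr8:109989418-109993201) spans 3784 bp, longer than 98.8% of promoter regions, and the region over its last exons and end (chr8:109995306-110001131) spans 5826 bp, the longest of the 61. The promoter region was at 91.4, 98.7 and 114 CPM in young and 68.0, 107, 118 and 107 CPM in aged libraries. Aged 1 lay well below the young range and the others in or just above it, and the log2 fold change was -0.02 (SE 0.16, edgeR adjusted p = 0.946).

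The longer Tat region had the highest CPM of the 61 regions in young libraries and varied widely between aged ones. It was at 211, 298 and 223 CPM in young libraries and at 107, 180, 219 and 335 CPM in aged libraries. Aged 1 was the lowest and aged 4 the highest of all 7 libraries. The means of 244 ± 47.0 CPM (SD, n = 3) and 210 ± 95.1 CPM (SD, n = 4) overlapped widely, and the log2 fold change was -0.22 (SE 0.27, edgeR adjusted p = 0.656). The 3 regions upstream of Tat had log2 fold changes of 0.29, 0.04 and 0.13, and none passed the test. Without aged 4, 1 of the 5 Tat regions was above 0.

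Hgd, the homogentisate dioxygenase, had 12 regions along a gene body of 51868 bp. The promoter region (chr16:37579517-37581886) was at 45.1, 48.2 and 52.0 CPM in young and 49.99, 62.4, 60.2 and 53.1 CPM in aged libraries, which overlapped only through aged 1 and young 3. The log2 fold change was 0.22 (SE 0.12, edgeR adjusted p = 0.269). The strongest other region, in an intron near the start (chr16:37582980-37585080), was at 36.5, 37.9 and 40.8 CPM in young and 41.9, 46.3, 51.8 and 41.1 CPM in aged libraries. All aged values were above all young ones there, with a log2 fold change of 0.23 (SE 0.12, edgeR adjusted p = 0.243).

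Beyond these, all 10 other Hgd regions had log2 fold changes below 0, from -0.91 to -0.10. None passed the test, and 3 had an unadjusted p under 0.05. The lowest was an intronic region (chr16:37591135-37591793) at 7.41, 9.56 and 5.92 CPM in young and 5.97, 3.73, 3.03 and 3.18 CPM in aged libraries, which overlapped through aged 1 and young 3. Its log2 fold change of -0.91 (SE 0.28) had an edgeR adjusted p of 0.0671. A region of a further intron (chr16:37596686-37597827) was at 14.5, 16.3 and 11.2 CPM in young and 8.61, 8.83, 10.7 and 9.04 CPM in aged libraries, without overlap, with a log2 fold change of -0.62 (edgeR adjusted p = 0.0656). Most of these regions are weak, and their deciles of mean accessibility had medians below 0. Set against the median of its own decile, the lowest region differed by -0.72 and the region of the further intron by -0.55. In all, 10 of the 12 Hgd regions were below their decile median.

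Tdo2, which starts tryptophan breakdown, was more accessible in aged libraries on average at its start and less accessible at and past its end. The promoter region (chr3:81974676-81976361) was at 40.3, 46.7 and 43.1 CPM in young and 57.9, 54.9, 57.2 and 53.3 CPM in aged libraries. All aged libraries were above all young ones, with means of 43.4 ± 3.23 CPM (SD, n = 3) and 55.8 ± 2.10 CPM (SD, n = 4). The log2 fold change was 0.36 (SE 0.11), and the edgeR adjusted p of 0.0617 missed the threshold. DESeq2 called the same region, at an adjusted p of 0.0319, as did edgeR with GC offsets, and 19 of 21 alternatives did not. Under abundance offsets the log2 fold change was 0.14 (edgeR adjusted p = 0.537), and under total-count scaling 0.24 (edgeR adjusted p = 0.173). Fah and Tdo2 were the 2 of 9 member promoters in which the ages did not overlap, where 24.0% of the promoter regions of protein-coding genes had every aged library above every young one. The study's own selection of genes from these libraries holds both, so that selection is not independent evidence of their direction.

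The downstream side of Tdo2 held the largest decrease of the 61 regions. A region past the end of the gene (chr3:81954355-81955313) was at 18.6, 17.6 and 10.03 CPM in young and 6.15, 9.02, 5.84 and 6.75 CPM in aged libraries. Aged values were all below young ones, with young 3 the nearest. The log2 fold change was -1.18 (SE 0.24), with an edgeR adjusted p of 0.0160. This region lies in the last exon of Ctso, the cathepsin O gene that ends next to Tdo2, and within 10000 bp of Tdo2 it was counted as a flank. The call was lost without young 1, young 2, aged 1 or aged 3, with edgeR adjusted p of 0.0785, 0.0747, 0.0611 and 0.0582. In those fits 0.239%, 0.449%, 0.490% and 0.853% of all regions were called less accessible, against 3.30% with all libraries.

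Between these ends, the regions of Tdo2 were mostly lower in aged liver on average. The strongest region outside the promoter, over the end of Tdo2 (chr3:81955763-81958265), was at 46.9, 45.2 and 38.0 CPM in young and 26.9, 38.0, 29.2 and 41.7 CPM in aged libraries. The ages overlapped through aged 2 and aged 4, and the log2 fold change was -0.36 (SE 0.15, edgeR adjusted p = 0.168). This region has 1176 of its 2503 bp within Tdo2 and also overlaps Ctso, so its reads cannot be assigned to Tdo2 alone. A region over coding exons (chr3:81960207-81961198) was at 16.8, 14.9 and 13.5 CPM in young and 8.35, 6.67, 7.94 and 12.9 CPM in aged libraries, without overlap, at a log2 fold change of -0.74 (edgeR adjusted p = 0.0593). In all, 8 of the 11 Tdo2 regions were below 0, and the 3 above 0 were the promoter region and both regions upstream of it. Those upstream regions lie in the neighbouring gene Asic5, and the nearer is a promoter region of that gene.

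**Figure D2:**
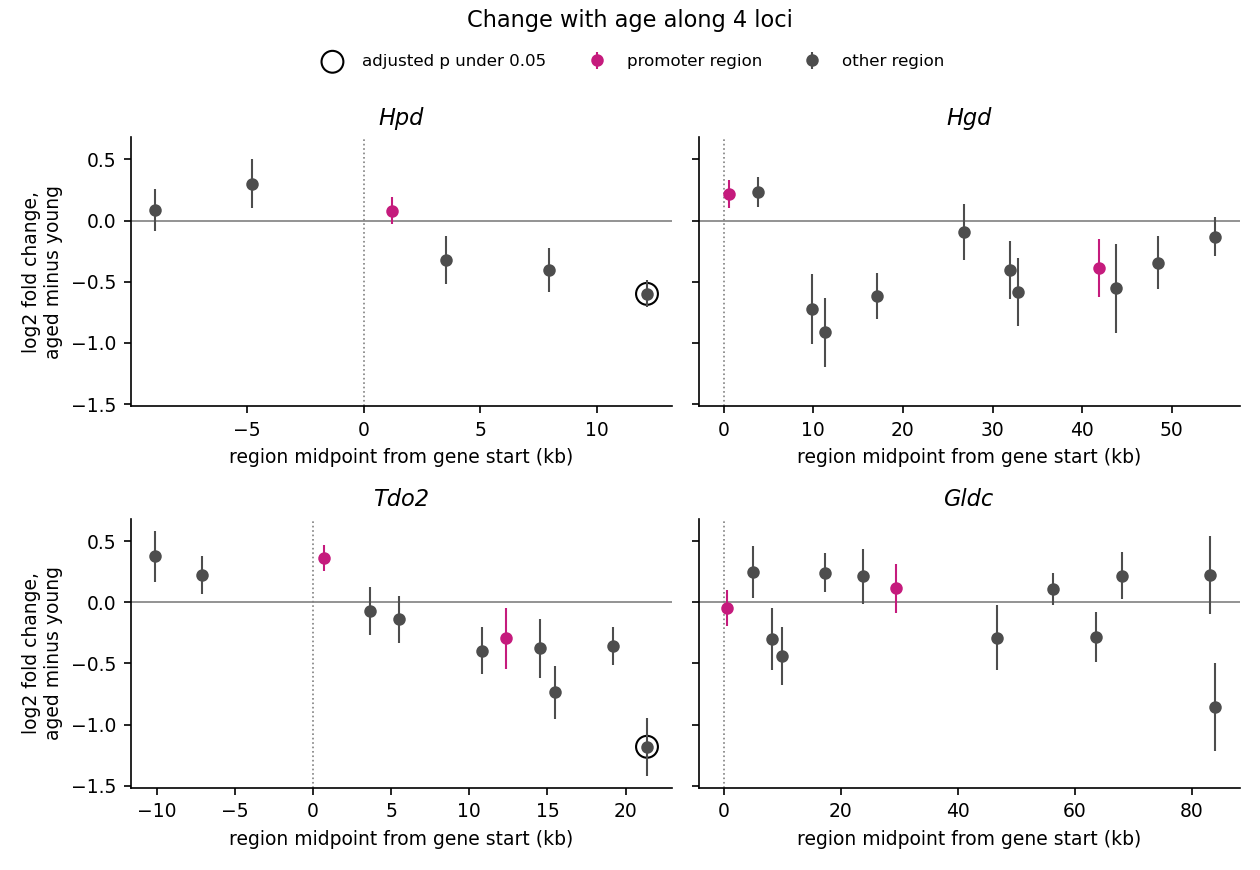
Log2 fold change of aged minus young with its SE (vertical axis) for each region at Hpd, Hgd, Tdo2 and Gldc, by the distance of its midpoint from the gene start in kb (horizontal axis, negative upstream). Circled regions had an edgeR adjusted p under 0.05. At Hpd and Tdo2 the values fall from above 0 near the start to -0.60 and -1.18 at the far end, and at Gldc they scatter around 0.

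Hal, the histidine ammonia lyase, had log2 fold changes above 0 at 6 of its 7 regions, but none passed the test. Aged 4 was the highest aged library at those 6, and without it 3 of the 7 were above 0. Its promoter region (chr10:93487548-93489587) was at 46.7, 45.1 and 32.2 CPM in young and 49.0, 43.7, 51.1 and 64.0 CPM in aged libraries. The ages overlapped through aged 2, and the log2 fold change was 0.32 (SE 0.15, edgeR adjusted p = 0.214). It was 0.19 without young 3, 0.21 without aged 4 and 0.11 with offsets fitted on mean abundance. The strongest other region, over the end of the gene (chr10:93517577-93520038), was at 63.6, 53.9 and 58.5 CPM in young and 68.1, 54.5, 74.5 and 95.6 CPM in aged libraries, with aged 4 well above the rest. Its log2 fold change was also 0.32 (SE 0.16, edgeR adjusted p = 0.220). The 1 region that was lower lies upstream (chr10:93485132-93485569), at 11.5, 11.9 and 8.55 CPM in young and 8.43, 7.85, 7.004 and 5.98 CPM in aged libraries, without overlap, with a log2 fold change of -0.55 (edgeR adjusted p = 0.121).

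Sds, the serine dehydratase, and Sdsl beside it differed more within an age than between the ages. The Sds promoter region (chr5:120475930-120477028) was at 29.6, 34.6 and 25.8 CPM in young and 22.1, 28.2, 36.9 and 58.8 CPM in aged libraries. Aged 1 was the lowest and aged 4 the highest of all libraries, and the log2 fold change of 0.27 had an SE of 0.25 and an edgeR adjusted p of 0.545. The region over the end of Sds (chr5:120481701-120484982) was at 49.2, 67.7 and 49.99 CPM in young and 34.0, 32.9, 56.3 and 122 CPM in aged libraries. Aged 4 alone stood above the young range, aged 1 and 2 below it, and the log2 fold change was 0.14 (SE 0.34, edgeR adjusted p = 0.842). This region has 2232 of its 3282 bp within Sds and also overlaps the gene Plbd2, so its reads cannot be assigned to Sds alone. Without aged 4 the Sds promoter region turned to a log2 fold change of -0.08.

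The same held at Sdsl. Its most accessible promoter region (chr5:120467052-120469058), at a start inside the gene, was at 40.5, 45.5 and 31.4 CPM in young and 30.9, 38.4, 40.2 and 65.2 CPM in aged libraries, with a log2 fold change of 0.15 (SE 0.21, edgeR adjusted p = 0.711) that was -0.12 without aged 4. The region at the outer start (chr5:120471371-120473122) was at 40.0, 44.7 and 19.4 CPM in young and 31.4, 40.4, 46.7 and 66.1 CPM in aged libraries, with a log2 fold change of 0.38 (SE 0.26, edgeR adjusted p = 0.389). Young 3 was the lowest and aged 4 the highest there.

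The spread between libraries of one age was itself high at Tat and Sds. The SD of log2 CPM among the 4 aged libraries was 0.88 at the region over the end of Sds, 0.68 at the longer Tat region and 0.60 at the Sds promoter region, beside a median of 0.28 over all regions. Among regions of the same decile of accessibility, the 5 Sds regions ranked between the 88.5th and the 99.9th percentile of this SD and the 5 Tat regions between the 87.9th and the 99.7th. Among the 3 young libraries, the same ranks ran from the 65.1st to the 99.5th percentile at Sds and from the 58.2nd to the 85.2nd at Tat. At Fah, the 2 regions were at the 45.2nd and 61.2nd percentile in aged libraries and at the 78.1st and 81.1st in young ones. Aged 4 was the highest aged library at 39 of the 61 regions, or 63.9%, against 29.9% of all regions. Aged 1 was the lowest at 27 of the 61, and at 19.99% of all regions. These ranks were computed after the values had been seen and carry no test.

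Gldc, of the glycine cleavage system, had 13 regions and no call. The region at the gene's start (chr19:30173929-30175687) was at 26.9, 25.5 and 30.7 CPM in young and 21.9, 25.3, 28.2 and 31.7 CPM in aged libraries, with a log2 fold change of -0.05 (SE 0.15, edgeR adjusted p = 0.876). Slightly more accessible was a region at an internal transcript start (chr19:30144749-30147369), at 28.9, 27.5 and 29.4 CPM in young and 30.9, 17.5, 35.5 and 39.3 CPM in aged libraries. The young libraries were tight there, while aged 2 lay far below and aged 1, aged 3 and aged 4 above. The log2 fold change was 0.12 (SE 0.20, edgeR adjusted p = 0.765). The strongest region outside a promoter, over coding exons (chr19:30118483-30119797), was at 34.5, 34.998 and 27.3 CPM in young and 35.1, 30.4, 38.8 and 36.0 CPM in aged libraries, with a log2 fold change of 0.11 (edgeR adjusted p = 0.653).

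**Figure D3:**
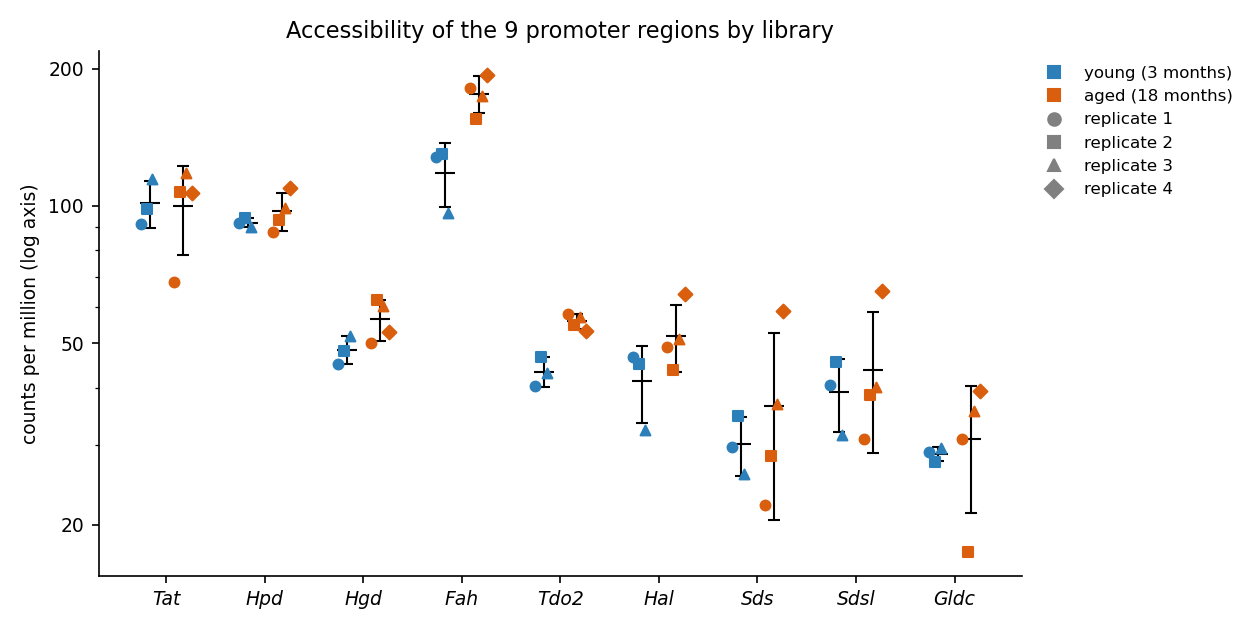
CPM (vertical axis, log scale) at the promoter region of each gene (horizontal axis) in 3 young and 4 aged libraries, with the mean and SD as bars. The ages separate at Fah and Tdo2, while at Sds, Sdsl and Gldc the aged libraries spread beyond the young range.

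Per length, the young level of the promoter regions was highest at Fah, at 45.6 ± 7.30 CPM per kb (SD, n = 3). Hpd followed at 30.3 ± 0.650, Sds at 27.3 ± 4.02, Tat at 26.8 ± 3.12 and Tdo2 at 25.7 ± 1.92 CPM per kb, and these neighbours differed by less than the larger of their SDs. Hgd at 20.4 ± 1.45, Hal at 20.3 ± 3.90 and Sdsl at 19.5 ± 3.57 CPM per kb formed a lower level without differences beyond their spread. Gldc was the lowest, at 10.9 ± 0.377 CPM per kb, for the region at its internal start. The region at the Gldc gene start was at 15.8 ± 1.53 CPM per kb. In aged libraries Fah was at 68.0 ± 6.23 CPM per kb (SD, n = 4) and Gldc at 11.8 ± 3.64 CPM per kb.

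Summed over each locus, accessibility separated the ages at Fah and Hpd only. The 2 Fah regions together were at 145, 146 and 108 CPM in young and 190, 169, 186 and 207 CPM in aged libraries, a log2 difference of 0.51. It was 0.16 with abundance offsets, and without the promoter region the remaining Fah region gave -0.34. The 6 Hpd regions together were at 265, 295 and 281 CPM in young and 208, 244, 248 and 253 CPM in aged libraries, a log2 difference of -0.24, which was -0.36 with total counts and -0.49 with abundance offsets. This rested on the region at the end of the gene that also covers a Psmd9 start. The other 5 Hpd regions together were at 149, 161 and 148 CPM in young and 133, 155, 160 and 167 CPM in aged libraries, a log2 difference of 0.0070 (two-sided exact permutation p = 0.914). The Fah sum and the Hpd sum of all 6 regions each gave p = 0.0571 in a two-sided exact permutation test, the smallest that 3 against 4 libraries allow, so that no locus could pass 0.05. The other 7 sums overlapped, with log2 differences from -0.15 at Tat to 0.20 at Hal and exact p from 0.343 to 0.857. The Hal difference was 0.0665 without aged 4, and the Tat difference was -0.27 with total counts and -0.50 with abundance offsets. The Sds and Sdsl sums share 4 regions and were at 342 and 312 CPM in aged 4, against at most 201 and 180 CPM in the other aged libraries.

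**Figure D4:**
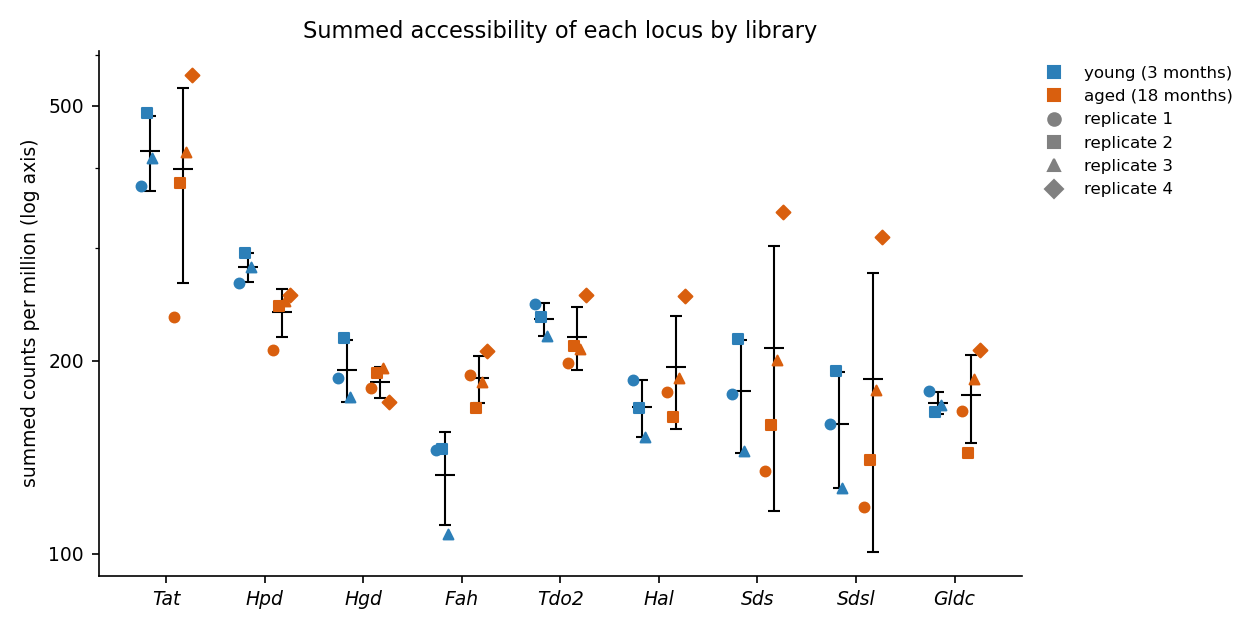
Summed CPM of all regions at each gene (vertical axis, log scale) in 3 young and 4 aged libraries, with the mean and SD as bars. Aged libraries are all above young ones at Fah and all below at Hpd, where the region shared with Psmd9 carries the difference, and aged 4 is the highest of all libraries at 7 of the 9 loci.

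The enzymes around the members in the same pathways were compared by their promoter regions. Of 29 such genes, 27 had a promoter region, and 5 of these rose, with 0 called lower and 22 not called by edgeR. Of the promoter regions of all protein-coding genes, 5.02% were called more accessible. Without young 1, aged 1 or aged 3, 0 were called, where 0.115%, 0.161% and 0.315% of protein-coding promoter regions were. Without young 2, 1 was called (0.338% of protein-coding promoter regions), and without young 3, 2 were (3.20%). Their median log2 fold change was 0.32, beside 0.13 over all protein-coding genes. Most of the 27 lie in deciles 9 and 10 of mean accessibility, the highest, where all promoter regions had medians of 0.15 and 0.28. All aged libraries were above all young ones at 17 of the 27, beside 24.0% over all protein-coding genes. With offsets fitted on mean abundance 0 were called, beside 0.108% of protein-coding promoter regions, and the median was 0.04. Of 21 alternatives, 15 did not call Qdpr, 14 Gcat, 13 Gcsh, 10 Amdhd1 and 7 Kyat3. Part of the list is in the study's own selection of genes from these libraries, which is no independent evidence of direction.

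In phenylalanine and tyrosine metabolism, 1 of 4 rose. Qdpr, which recycles the cofactor tetrahydrobiopterin, was at 132, 129 and 92.2 CPM in young and 174, 147, 168 and 182 CPM in aged libraries, with a log2 fold change of 0.51 (SE 0.14, edgeR adjusted p = 0.0439). The ages did not overlap at any of the 4. Pcbd1 and Gstz1, which were not called, had log2 fold changes of 0.33 and 0.29. In the kynurenine pathway, 1 of 10 rose. Kyat3, a kynurenine aminotransferase, was at 33.1, 39.2 and 28.3 CPM in young and 49.1, 45.3, 49.3 and 54.9 CPM in aged libraries, with the largest log2 fold change of the 27, 0.55 (SE 0.13, edgeR adjusted p = 0.0281).

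In histidine breakdown, 1 of 3 rose. Amdhd1, the imidazolonepropionase gene that neighbours Hal, was at 70.3, 69.1 and 75.0 CPM in young and 90.3, 93.6, 101 and 115 CPM in aged libraries, with a log2 fold change of 0.49 (SE 0.11, edgeR adjusted p = 0.0283). In serine, glycine and threonine metabolism, 2 of 10 rose. Gcsh, the carrier protein of the glycine cleavage system in which Gldc acts, was at 79.8, 82.6 and 71.5 CPM in young and 109, 94.7, 113 and 105 CPM in aged libraries, a log2 fold change of 0.43 (edgeR adjusted p = 0.0373). Gcat, of threonine breakdown, was at 58.2, 58.2 and 50.3 CPM in young and 81.5, 68.8, 71.2 and 75.6 CPM in aged libraries, a log2 fold change of 0.42 (edgeR adjusted p = 0.0431). The smallest value of the 27 was at Psat1, of serine synthesis, at 15.8, 18.6 and 17.6 CPM in young and 10.5, 12.9, 15.4 and 12.6 CPM in aged libraries. Its log2 fold change of -0.45 (SE 0.17) had an edgeR adjusted p of 0.123.

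**Figure D5:**
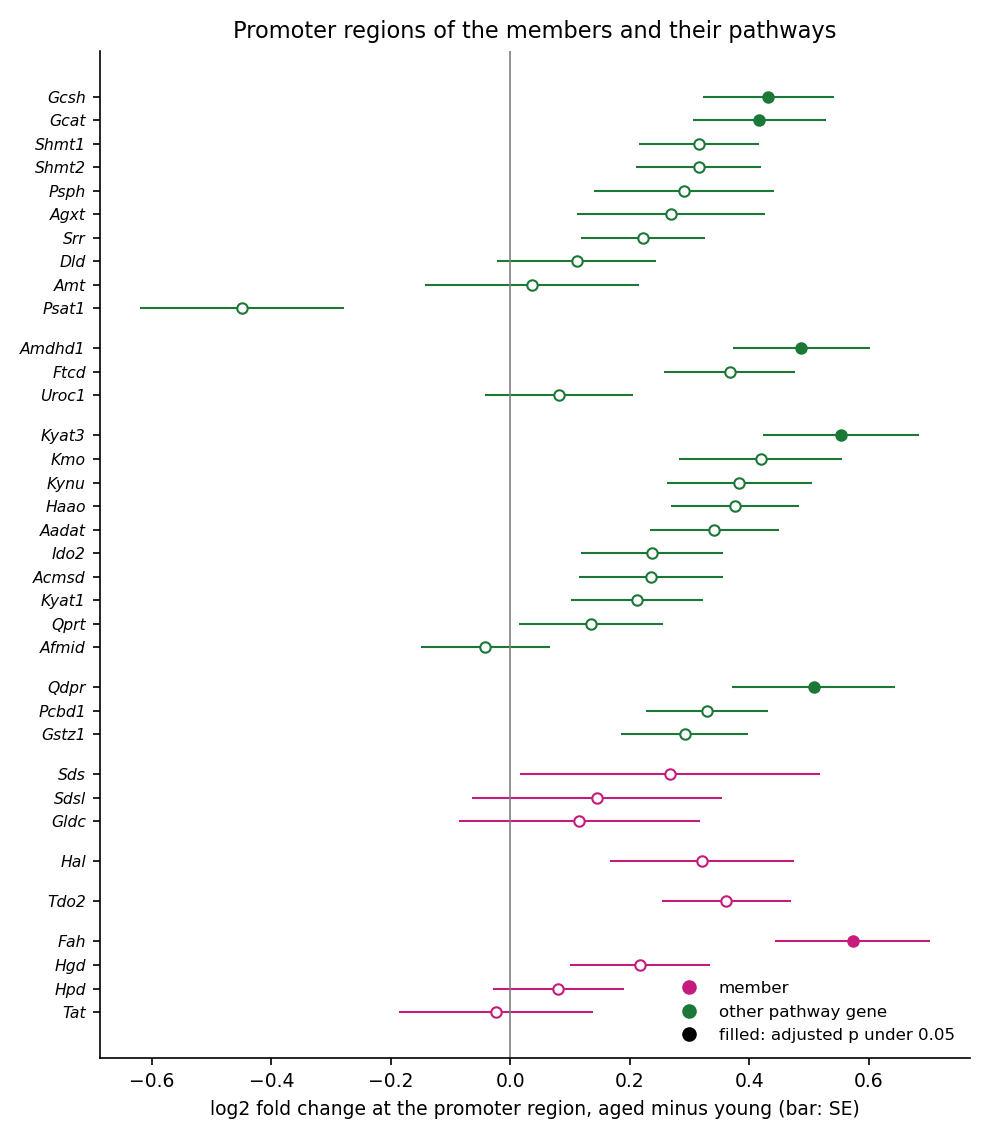
Log2 fold change of aged minus young with its SE (horizontal axis) at the promoter region of the 9 members and of other enzymes of their pathways (vertical axis, grouped by pathway). Filled points had an edgeR adjusted p under 0.05, which were Fah, Qdpr, Kyat3, Amdhd1, Gcsh and Gcat, and Psat1 is the farthest below 0.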

How the data were processed

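ATAC-seq libraries, 3 of young and 4 of aged liver, the latter from 3 animals by the deposited design text, were analysed, grouped by the age in the labels. Per the study's methods and the submitters' processing notes, the authors trimmed paired reads with cutadapt 1.13 and aligned them to GRCm38 with Bowtie2 2.4.1. They kept properly paired, well-mapped reads, called peaks with MACS2 2.2.7, merged peaks seen in at least 2 libraries, and deposited raw counts of reads per merged region from featureCounts. Any shift of read ends for the transposase was not given in the sources used here; it moves ends by a few bases and regions here span 234 bp or more.

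Regions were assigned to genes with GENCODE M21. Counts were tested with edgeR 4.0.16 (R 4.3.3): TMM factors, a quasi-likelihood test on all 55680 regions without a filter, and Benjamini-Hochberg adjustment, with p under 0.05 called. Log2 CPM used a prior count of 2. The test was checked on simulated data of all 55680 regions, where it called 99% of 100 regions raised 3-fold and 92% of 100 lowered 3-fold, and 5.91% of its calls were false. Changes at the named regions were smaller than 3-fold, a size that was not simulated, so these rates do not describe them. Locus sums were compared by a two-sided exact permutation test over 35 splits (scipy 1.17.1). DESeq2 1.42.0 and limma-voom (limma 3.58.1) were among the alternatives, with other scalings, filters, left-out libraries, summed pairs of aged libraries and a replicate block. No pair of libraries of an age agreed within sampling noise. None of the 61 regions had a copy elsewhere covering 80% of it at 95% identity (minimap2 2.31).

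All 9 genes, their promoter regions, called regions and the strongest region outside each promoter were named, and of the pathway genes those called and the extremes. Further regions, and Pcbd1 and Gstz1, were chosen after their values were seen. The remaining pathway genes are counted without values, and 1 of them is not reported here by name. The members and gene lists were chosen with earlier results of these data known. Total counts of 4474652 to 25461110 per library set the precision.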

Additional observations from a re-analysis of the deposited data

How the results depend on the processing

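The main test called 1 member region higher, 2 lower, 1 member promoter and 5 pathway promoters, with a median log2 fold change of 0.22 over the 9 promoters. Regions called higher, and member promoters, numbered 2 with DESeq2 or GC offsets, where 4.96% and 6.40% of all regions were called higher. Both numbered 0 with abundance offsets (0.449% of all regions) or at least 10 counts in every library (1.11%). Both were also 0 at an adjusted p under 0.01 (0.0898%) or with aged 1 and 3 summed (0.483%). Regions called lower numbered 5 with limma-voom or total-count scaling (4.28% and 5.26% of all regions) and 4 with aged 1 and 4 summed (3.56%). They numbered 1 in gene bodies without flanks, and 0 at an adjusted p under 0.01 (0.221%). Pathway promoters called numbered 12 with DESeq2, 10 with limma-voom, 13 with GC offsets and 1 with total counts, where 11.9%, 9.20%, 16.8% and 1.67% of all protein-coding promoter regions were called higher. Pathway promoters called numbered 0 with abundance offsets, the count filter or the 0.01 threshold, beside 0.108%, 1.43% and 0.0538% of protein-coding promoter regions. With aged 1 and 2 summed they numbered 3 (3.90% of protein-coding promoter regions), with 1 and 3, 0 (0.591%), and with 1 and 4, 2 (3.03%). With aged 2 and 3 summed they numbered 2 (2.41%), with 2 and 4, 5 (9.16%), and with 3 and 4, 1 (2.00%). The median became -0.0077 with abundance offsets. Leaving out each library gave 0 to 1 regions higher and 0 to 4 lower, beside 0.0988% to 2.93% and 0.239% to 4.67% of all regions. It gave 0 to 1 member promoters and 0 to 5 pathway promoters, beside 0.115% to 6.66% of protein-coding promoter regions. The median was 0.0244 to 0.30, and lowest without aged 4. No member region was called lower without young 2 or aged 1, where 0.449% and 0.490% of all regions were. The cause was not tested.

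Labels share replicate numbers between the ages. Deviations of same-numbered libraries had r = -0.119, 0.056 and 0.030, within the -0.151 to 0.232 of differently numbered ones. So few libraries cannot show whether the numbers pair them. With a replicate block over libraries 1 to 3 there were 5 regions called lower (4.55% of all regions), 1 pathway promoter (3.98% of protein-coding promoter regions) and a median of 0.0239, and the log2 fold changes of Sds, Sdsl and Gldc were -0.0852, -0.109 and -0.0792.

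Some promoters that were not called turned direction. Tat was at 0.0096 with DESeq2, 0.0378 with GC offsets and 0.0156 with aged 1 and 4 summed, and Hpd at -0.0395 and Gldc at -0.0091 with total counts. With abundance offsets Hpd was at -0.238, Hgd at -0.0077, Sdsl at -0.0433 and Gldc at -0.0133. With a library left out, Tat ranged from -0.11 to 0.13, Sds from -0.0796 to 0.46, Sdsl from -0.12 to 0.29 and Gldc from -0.0206 to 0.30. The locus sums turned too. Sds was at -0.0328 and Sdsl at -0.0394 with abundance offsets, and Gldc at -0.0048 and -0.0943 with abundance offsets and total counts. With a library left out, the sums ranged from -0.335 to 0.0833 at Tat, -0.129 to 0.0238 at Hgd, -0.123 to 0.324 at Sds, -0.127 to 0.340 at Sdsl, -0.0588 to 0.120 at Gldc, and 0.0665 (without aged 4) to 0.275 at Hal. The Hal sum was 0.0771 with total counts and 0.0455 with abundance offsets, and its promoter ranged from 0.19 to 0.42 with a library left out. Without the called region, an alternative chosen after seeing the data, the sum was 0.0070 at Hpd and -0.343 at Fah. Total counts moved the median of all regions to -0.15, from -0.04.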
